A study of Drosophila melanogaster with 2 samples.

Results

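The nuclear genes of the respiratory chain and the ATP synthase were examined in a ChIP-seq study of lms in Drosophila melanogaster embryos. The product of lms (lateral muscles scarcer), also named CG13424, is a homeodomain transcription factor. They were taken as all protein-coding genes of the Ensembl annotation whose symbol starts with ND-, Sdh, UQCR-, COX or ATPsyn, which stand for complexes I, II, III, IV and V. The rule gave 88 of 13968 protein-coding genes. Of these, 63 encode subunits, 24 are paralogs whose symbols mark them as like-genes (such as ND-24L beside ND-24), and 1, Sdhaf3, encodes an assembly factor of complex II. Complex I had 34 subunit genes and 6 like-genes, complex II had 4 and 3, complex III had 6 and 3, complex IV had 8 and 8, and complex V had 11 and 4.

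Binding was mapped by ChIP-seq, in which sheared chromatin is precipitated with an antibody and the recovered DNA is sequenced. There was 1 group with 2 biological replicates, both of whole embryos of a transgenic line that stably expresses CG13424 with GFP fused to its C-terminus, collected as pooled male and female embryos at 6 to 18 hours with no treatment named. Per the labels, the precipitation used anti-GFP, although another label gives CG13424 as the antibody, and the hours in the age label differ from the 6 to 18 hours of the source name, which are used here. Control embryos without the tag were not analysed here, and both replicates were called against the same control alignment. In whole embryos, binding in fewer cells and weaker binding per cell cannot be told apart.

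Complex I passes electrons from NADH, and complex II from succinate, to a quinone. Complex III passes them on to cytochrome c, and complex IV to oxygen, and complex V, the ATP synthase, makes ATP from the proton gradient that complexes I, III and IV build. A few of the subunits are encoded by mitochondrial DNA and the others by the nuclear genes described here. Those genes are active in nearly all tissues and muscle has a high demand for their products. In Drosophila many have duplicates that are expressed mainly in testis. lms itself is known for its expression in the lateral body wall muscles.

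Each peak was represented by its summit. Positions are in bp from the transcription start site (TSS) of the gene named, with negative values upstream, and a summit within 500 bp of a TSS of the gene is called a promoter summit. The 4 lists of summits were the 7521 peaks that passed the irreproducible discovery rate procedure (the IDR list), the 30000 peaks called on both replicates together (the pooled list), and 30000 peaks from each replicate. The IDR list was the 7521 highest peaks of the pooled list, so a gene found only in the pooled list has a lower peak. The lists of 30000 peaks reach down to weak calls. Their lowest −log10 q-value, which is lower for a weaker call, was 0.396 (pooled), 0.494 (replicate 1) and 0.224 (replicate 2). Every peak of the IDR list had 4.37. Ranks count from 1 at the highest signal, and the deposited signal has no stated scale and is compared only within a list. No interval from reads is given, because the sources used here do not state the depth.

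The sequences under the summits are shown first for promoters with high summits. Each run below covers 50 bp to each side of a summit of the IDR list, on dm6, read 5′ to 3′ along the strand of the gene. They were selected from the windows of high members of each complex and from those that hold a searched motif. Capitals mark matches to the letters of a motif, here TTATATAA or TTACATAA. These are spellings searched for the palindrome that occurs upstream of nuclear respiratory genes, although TTACATAA is not itself palindromic.
ND-ASHI, chrX:6679311-6679411, minus strand: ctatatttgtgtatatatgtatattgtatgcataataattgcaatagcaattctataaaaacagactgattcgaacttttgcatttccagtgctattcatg
ND-42, chr3R:22027574-22027674, plus strand: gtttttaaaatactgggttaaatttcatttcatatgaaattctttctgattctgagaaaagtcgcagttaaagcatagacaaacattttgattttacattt
SdhC, chr3R:11209902-11210002, minus strand: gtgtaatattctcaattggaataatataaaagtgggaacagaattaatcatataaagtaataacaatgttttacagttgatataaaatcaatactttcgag
COX5A, chr3R:11819424-11819524, plus strand: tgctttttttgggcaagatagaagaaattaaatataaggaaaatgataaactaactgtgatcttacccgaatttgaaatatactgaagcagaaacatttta
COX7B, chr3L:17425295-17425395, plus strand: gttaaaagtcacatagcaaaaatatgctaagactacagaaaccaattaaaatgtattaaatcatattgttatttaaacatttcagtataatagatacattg
ATPsynE, chr3R:14326928-14327028, plus strand: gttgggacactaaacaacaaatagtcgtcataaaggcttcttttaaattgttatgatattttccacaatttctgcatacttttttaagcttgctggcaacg
ND-SGDH, chr3L:12138574-12138674, minus strand: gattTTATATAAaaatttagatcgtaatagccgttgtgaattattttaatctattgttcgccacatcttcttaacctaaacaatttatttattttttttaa
ND-MNLL, chrX:7893813-7893913, minus strand: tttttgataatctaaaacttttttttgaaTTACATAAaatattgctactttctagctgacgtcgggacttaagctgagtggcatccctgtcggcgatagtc

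Of these 8 windows, those of ND-ASHI, ND-42, SdhC, COX5A, COX7B and ATPsynE held none of the motifs searched. Their share of A and T ranged between 66.3% in ATPsynE and 77.2% in COX7B. In the window of ND-SGDH the match TTATATAA lay near the upstream end, and in that of ND-MNLL the match TTACATAA lay upstream of the summit.

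A second set shows windows that hold the letters of other promoter elements. UQCR-C2 is from the IDR list and the others are from the pooled list, at ranks between 9142 (COX4) and 16494 (ND-B14.5B). Capitals mark GGTCACAC or its reverse complement GTGTGACC, the core of the element bound by M1BP, or TATCGATA, the element bound by DREF. They also mark CAGCTG, an E-box, and TAATTA, a homeodomain core.
UQCR-C2, chr3L:16584188-16584288, plus strand: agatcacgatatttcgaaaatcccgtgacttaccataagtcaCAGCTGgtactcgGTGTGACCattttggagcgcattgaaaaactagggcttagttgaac
ND-PDSW, chr2L:3466046-3466146, plus strand: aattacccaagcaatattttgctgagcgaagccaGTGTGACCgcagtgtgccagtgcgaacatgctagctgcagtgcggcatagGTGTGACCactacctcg
ND-ACP, chr3L:1329915-1330015, plus strand: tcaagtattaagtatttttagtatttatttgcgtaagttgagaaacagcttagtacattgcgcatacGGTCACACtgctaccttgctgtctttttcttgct
COX4, chr2L:19958616-19958716, plus strand: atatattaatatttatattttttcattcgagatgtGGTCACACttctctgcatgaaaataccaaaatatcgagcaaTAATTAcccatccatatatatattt
ND-B14.5B, chr2L:3145702-3145802, minus strand: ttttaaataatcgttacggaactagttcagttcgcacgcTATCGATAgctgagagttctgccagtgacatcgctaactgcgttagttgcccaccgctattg
COX7A, chr3R:8341017-8341117, minus strand: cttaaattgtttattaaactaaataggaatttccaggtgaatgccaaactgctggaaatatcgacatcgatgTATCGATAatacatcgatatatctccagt

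The window of ND-PDSW held GTGTGACC at 2 places. The window of UQCR-C2 held CAGCTG beside GTGTGACC, and that of COX4 held GGTCACAC and TAATTA. A match describes the letters of a window and does not show that a protein was bound there.

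In the pooled list and in each replicate most subunit genes had a promoter summit, and in every list most like-genes had none. In the pooled list 60 of 63 subunit genes (95.2%) and 5 of 24 like-genes (20.8%) had one, beside 53.4% of all protein-coding genes. In the IDR list the promoter count was 27 subunit genes (42.9%) and 0 like-genes, beside 28.8% of all protein-coding genes. In the replicate 1 list it was 60 subunit genes and 5 like-genes, beside 53.4% of all protein-coding genes. In the replicate 2 list it was 52 subunit genes (82.5%) and 3 like-genes (12.5%), beside 52.5% of all protein-coding genes. Sdhaf3 had no summit in any list. No test was made of these shares, because there was 1 group and the members are not replicates.

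**Figure D1:**
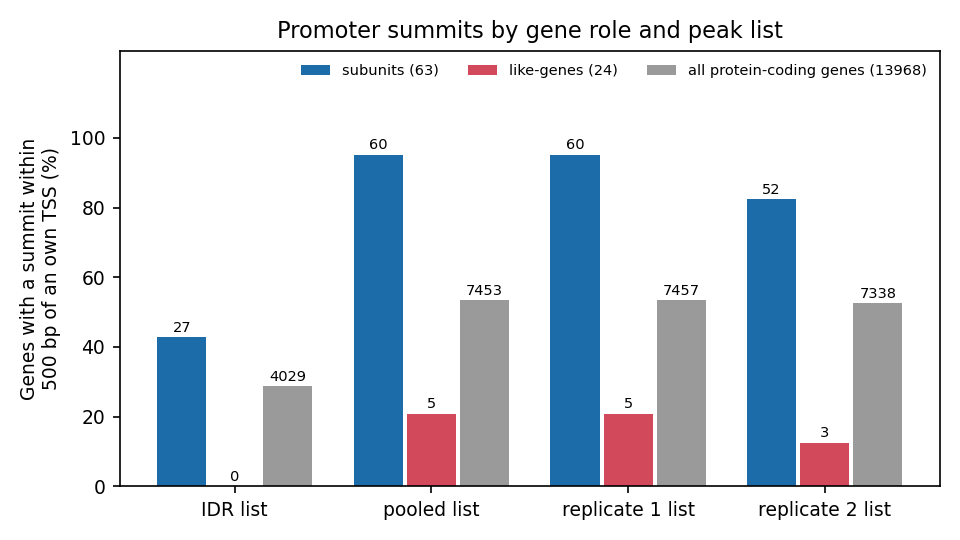
Share of genes (%, vertical axis) with a summit within 500 bp of an own TSS in each of the 4 peak lists, for subunit genes, like-genes and all protein-coding genes, with the number of genes printed above each bar. Subunit genes stand at 95.2% in the pooled list, like-genes at 20.8% and all protein-coding genes at 53.4%.

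Over all 88 members, 27 (30.7%) had a promoter summit in the IDR list and 65 (73.9%) in the pooled list. These totals mix the subunits with the like-genes, whose shares lie on opposite sides of the share of all genes.

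The window of the gene and 2 kb upstream gave the same order of subunit genes, all genes and like-genes. In the IDR list 37 of 88 members (42.0%) had a summit, beside 40.0% of all protein-coding genes, so that the share of the members as a whole was near the background. Of these 37 members, 36 were subunits (57.1% of 63) and 1 was a like-gene, COX7AL2. In the pooled list 60 subunit genes and 9 like-genes (37.5%) had a summit in the window, beside 64.6% of all protein-coding genes. The same count was 60 subunit genes and 9 like-genes in replicate 1, beside 63.9% of all protein-coding genes, and 59 subunit genes and 10 like-genes in replicate 2, beside 71.6% of all protein-coding genes. The windows of the members were shorter than most, with a median gene length of 1178 bp for subunit genes, 744 bp for like-genes and 2164 bp for all protein-coding genes.

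Every subunit gene had a promoter summit in at least 1 of the 4 lists. In both replicates it was present for 49 subunit genes, in replicate 1 but not replicate 2 for 11, and in replicate 2 but not replicate 1 for 3. Counts over several lists were not made for all protein-coding genes, so these are not read as particular to subunit genes. The 11 genes of replicate 1 alone were at ranks between 7652 and 25851 of that list. Of the 49, 46 had ranks that differed by at most 2-fold between the replicates. Of the same 49, 32 ranked higher in replicate 2 and 17 in replicate 1. The highest promoter summit of each replicate was taken wherever it lay, so different peaks could be compared, as at ND-B22 (positions -28 and 462). Over all protein-coding genes the median rank was 6944 in replicate 1 and 5938 in replicate 2, and the 2-fold count was not made.

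**Figure D2:**
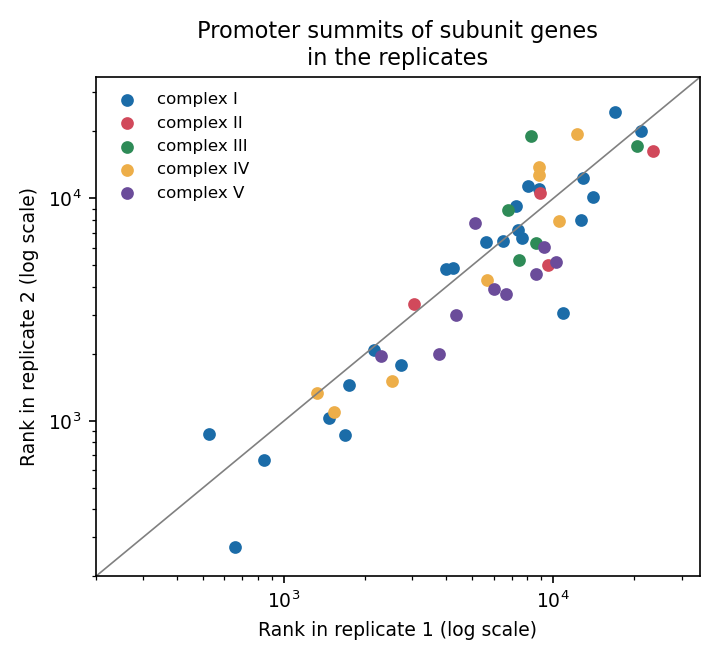
Rank of the highest summit within 500 bp of an own TSS in replicate 1 (horizontal, log scale) and replicate 2 (vertical, log scale) for the 49 subunit genes with one in both, coloured by complex, with rank 1 the highest signal and the grey line at equal ranks. Of the 49 genes, 46 lie within a 2-fold difference in rank.

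The pooled list missed a promoter summit for 3 subunit genes. ND-MLRQ, whose mammalian counterpart is now placed in complex IV, had one in replicate 2 alone, at rank 3928 and position -119. UQCR-11, a subunit of complex III, had one in replicate 2 alone, at rank 4335 and position -55. ND-49, a core subunit of complex I on chromosome 4, had one in replicate 1 (rank 10843, position -114) and in replicate 2 (rank 3049, position -184). These ranks in replicate 2 were above those of most other subunit genes, whose median rank there was 5221.

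The promoter summits of subunit genes lay close to the TSS. In the IDR list their median position was -85 (quartiles -127 and -39.5, n = 27), beside -137 (quartiles -223 and -75, n = 4029) for all protein-coding genes with one. In the pooled list the median was -57.5 (quartiles -108 and -21.2, n = 60), beside -113 (quartiles -212 and -26, n = 7453) for all protein-coding genes. In the pooled list 60% of the subunit genes had the summit within 100 bp of the TSS, beside 39.8% of all protein-coding genes with one. The share upstream of the TSS was 80% for subunit genes and 81.1% for all protein-coding genes.

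The peaks at subunit promoters spread over the ranks of the lists. The median rank of the promoter summits in the IDR list was 3049 for subunit genes and 2933 for all protein-coding genes. Over the whole pooled list it was 8000 for subunit genes and 6746 for all protein-coding genes. Of the 63 subunit genes, 27 had their promoter summit at ranks 1 to 7521, 21 (33.3%) at ranks 7522 to 15000 and 12 (19.0%) at ranks 15001 to 30000. The shares of all protein-coding genes in the lower bands were 14.7% and 9.84%. The 33 subunit genes with a promoter summit in the pooled but not in the IDR list had a median position of -47, beside -60 for 3424 protein-coding genes of the same kind.

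**Figure D3:**
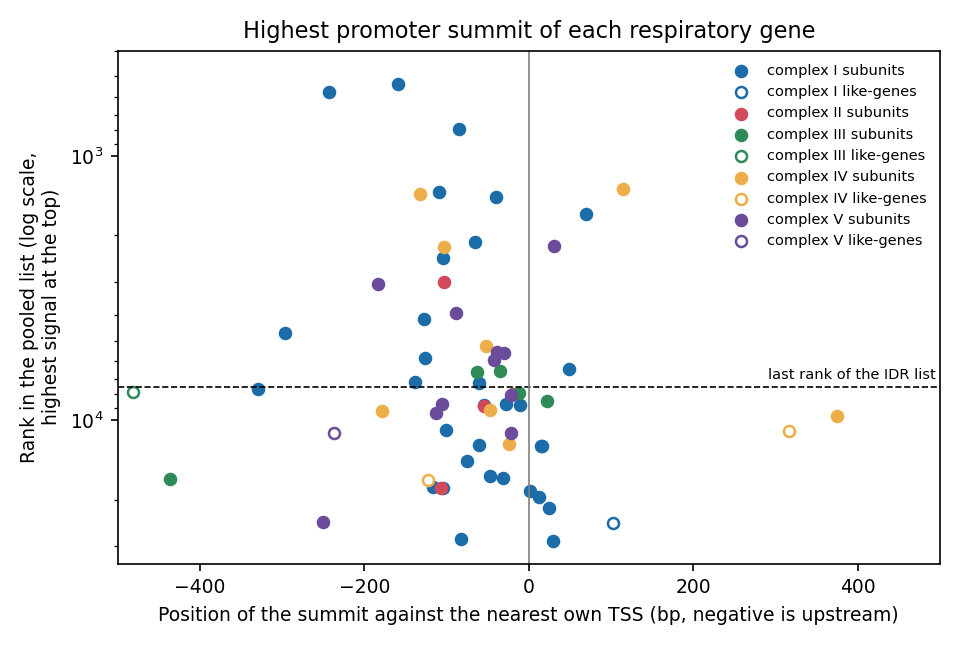
Position (bp from the nearest own TSS, horizontal) and pooled rank (vertical, log scale, highest signal at the top) of the highest summit within 500 bp of an own TSS, for 60 subunit genes (filled) and 5 like-genes (open), coloured by complex. The dashed line is rank 7521, the end of the IDR list, and 27 subunit genes but 0 like-genes lie above it.

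Complex I, which oxidises NADH, had a promoter summit in the IDR list at 14 of 34 subunit genes (41.2%) and in the pooled list at 32 (94.1%), beside 28.8% and 53.4% of all protein-coding genes. Of its 7 subunits conserved with bacteria, which hold the flavin and the iron-sulfur clusters or stand beside them, 5 (71.4%) had a promoter summit in the IDR list, namely ND-20, ND-23, ND-24, ND-30 and ND-51. Of the other 27, most of which were added in eukaryotes, 9 (33.3%) had one, a share near the 28.8% of all protein-coding genes. In the pooled list the counts were 6 of 7 (85.7%) and 26 of 27 (96.3%). In replicate 1 they were 7 of 7 and 25 of 27, and in replicate 2 they were 7 of 7 and 18 of 27. The shares of all protein-coding genes in these lists were 53.4%, 53.4% and 52.5%, in the same order. The difference between these roles was not tested.

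The highest peaks of complex I were at accessory subunits, which hold no redox cofactor. ND-MWFE had signal 1158 at rank 536 of the IDR list, position -159, and ranked 657 in replicate 1 and 271 in replicate 2. Its summit was 62 bp from the TSS of TppII, a tripeptidyl peptidase gene. ND-ASHI had signal 1116 at rank 574, position -243 (peak chrX:6679195-6679545, upstream of the gene), and ranked 528 in replicate 1 and 872 in replicate 2. Within 500 bp of the same summit is a TSS of Fum1, the fumarase of the tricarboxylic acid cycle, for which the summit was at position -279. The third highest was ND-42, with signal 906 at rank 793, position -85, and ranks 846 in replicate 1 and 664 in replicate 2. These 3 promoters ranked 872 or better in each replicate, and each has a neighbouring gene within 500 bp of the summit, which for ND-42 is Cchl.

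Among the other high peaks, ND-51, which binds the flavin, had signal 619 at rank 1374, position -109, and ranked 1464 in replicate 1 and 1025 in replicate 2. A second IDR summit lay at position -316, 84 bp from the TSS of CG13994. ND-24, an iron-sulfur subunit, had signal 540 at rank 1653, at position 69 within an exon, and ranked 1748 in replicate 1 and 1442 in replicate 2. ND-SGDH, a membrane arm subunit, had signal 600 at rank 1433, position -40, and ranked 1690 in replicate 1 and 865 in replicate 2. A pair of further IDR summits lay upstream of it, at -245 and -981. For ND-51, ND-24 and ND-SGDH alike both replicates placed the promoter at rank 1748 or better among 30000 peaks.

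Lower in the list, ND-MNLL ranked 2111, ND-23 ranked 2444, ND-B17 ranked 4136 and ND-30 ranked 4676. ND-B8, ND-B17.2, ND-20 and ND-B18 lay between ranks 5809 and 7237. All of these 8 had the summit within 300 bp of the TSS, at positions between -296 (ND-30) and 49 (ND-B17.2). For ND-30 and ND-B8 the nearest coding TSS was that of another gene, CG15812 at 117 bp and Secp43 at 47 bp. The 8 genes are named after their values were seen.

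For 3 subunit genes of complex I the highest IDR summit was far from the own TSS. ND-75, the largest iron-sulfur subunit, had signal 266 at rank 3770, position -801, and the summit was 182 bp from the TSS of CG1632. Its own promoter summit in the pooled list was at rank 28667, position 29. ND-39 had signal 467 at rank 2016, position 1494, in an intron and 86 bp from the TSS of ZnT77C, a zinc transporter gene. Its promoter summit in the pooled list was at rank 7594, position -330, just outside the IDR list. ND-15 has a gene record of 41305 bp, and its IDR summit (signal 136, rank 7448) was at position 14510 in an intron, 9 bp from the TSS of CG3164. At all 3 genes the summit of highest signal in the window was nearer to the TSS of another gene.

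Complex II, the succinate dehydrogenase, had a promoter summit in the IDR list at 1 of 4 subunit genes (25%), near the 28.8% of all protein-coding genes, and in the pooled list at all 4, beside 53.4%. SdhC, a membrane anchor, had one at position -103 with signal 328 at rank 3002, which ranked 3030 in replicate 1, while the highest promoter summit of replicate 2 was at position -291 with rank 3360. The highest summit in the SdhC window was at -1990 (signal 351, rank 2789), 1592 bp from the TSS of Tctp. SdhA, the flavoprotein, had its highest IDR summit at position -863 (signal 432, rank 2218), 62 bp from the TSS of cer, and its promoter summit in the pooled list was at rank 18134, position -107. SdhB, the iron-sulfur subunit, and SdhD, the other anchor, had promoter summits in the pooled list at rank 8871 (position -54) and rank 7989 (position -19). Both lay just below the last rank of the IDR list, and both were found in each replicate.

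Complex III, which reduces cytochrome c, had a promoter summit in the IDR list at 2 of 6 subunit genes (33.3%), near the 28.8% of all protein-coding genes, and in the pooled list at 5 (83.3%), beside 53.4%. UQCR-C2, a core protein, had signal 157 at rank 6505, position -35, in an exon, and ranked 6788 in replicate 1 and 8887 in replicate 2. UQCR-Q had signal 156 at rank 6596, position -63, and ranked 7432 in replicate 1 and 5282 in replicate 2. Both were near the lower end of the IDR list, which stops at rank 7521. A higher summit of the UQCR-C2 window, at position -1233 with signal 330 and rank 2969, was 137 bp from the TSS of Rpn12, a proteasome gene. UQCR-14 had its IDR summit at position -903 (signal 213, rank 4755), for which its own TSS was the nearest of any coding gene, and its promoter summit at -12 was at rank 7926 of the pooled list. UQCR-C1, the other core protein, was at rank 8455, position 22, and UQCR-6.4 at rank 16705, position -437.

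Complex IV, cytochrome c oxidase, had a promoter summit in the IDR list at 4 of 8 subunit genes (50%), beside 28.8% of all protein-coding genes. In the pooled list and in each replicate it had one at all 8. Of all protein-coding genes, 53.4% had one in the pooled list, 53.4% in replicate 1 and 52.5% in replicate 2. COX5A had signal 630 at rank 1336, position 115 in an intron (peak chr3R:11819302-11819674), and ranked 1330 in replicate 1 and 1340 in replicate 2. Its summit was 54 bp from the TSS of glo, a gene of RNA-binding protein Glorund. COX7B had signal 613 at rank 1393, position -132, and ranked 1530 in replicate 1 and 1094 in replicate 2. That summit was 128 bp from the TSS of Sec3. COX8 had signal 431 at rank 2222, position -103, and ranked 2508 in replicate 1 and 1508 in replicate 2, with a second IDR summit at -305. COX6B had signal 194 at rank 5253, position -52, and ranked 5684 in replicate 1 and 4310 in replicate 2. That summit was 44 bp from a TSS of CG33932 and of Rpp20. The ranks of COX5A differed least between the replicates among these 4.

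COX7C was the highest complex IV gene by window (signal 811, rank 940, with ranks 868 in replicate 1 and 1417 in replicate 2), but that summit was at position -1955. Of its 4 summits of the pooled list within 500 bp of a TSS, the highest was at position 375 and rank 9685 and the nearest to a TSS was at -214. The promoter summits of COX4, COX5B and COX7A were in the pooled list at ranks 9142, 9273 and 12328.

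Complex V, the ATP synthase, had a promoter summit in the IDR list at 6 of 11 subunit genes (54.5%), beside 28.8% of all protein-coding genes. In the pooled list it had one at all 11, beside 53.4%. In replicate 1 the count was 11, beside 53.4%, and in replicate 2 it was 9 (81.8%), beside 52.5%. ATPsynE, a subunit of the membrane part, had signal 435 at rank 2195, position 31 in an exon, and ranked 2301 in replicate 1 and 1959 in replicate 2. ATPsynCF6, the coupling factor, had signal 323 at rank 3049, position -184, and ranked 3753 in replicate 1 and 2007 in replicate 2. That summit was 30 bp from the TSS of Sec13. ATPsyngamma, the central shaft, had signal 256 at rank 3937, position -88, and ranked 4350 in replicate 1 and 2987 in replicate 2. In each of these 3 the rank was higher in replicate 2.

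Further promoter summits of complex V were those of ATPsynF (signal 186, rank 5512, position -39), ATPsynO, a part of the peripheral stalk (signal 183, rank 5587, position -30), and ATPsynC, the proton-carrying ring (signal 174, rank 5900, position -42). All 3 lay within 50 bp upstream of the TSS. For ATPsynC the nearest summit of replicate 2 to the IDR summit was 204 bp away, at position -246. Over the 37 members with an IDR summit in the window, 36 had a summit within 150 bp of the highest one in both replicates, and ATPsynC was the exception. Of 5583 protein-coding genes with an IDR summit in the window, 5453 had an IDR summit matched within 150 bp in both replicates. The IDR list is selected for agreement between the replicates, so such matches follow in part from how it was made.

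Of the complex V genes, 4 had their highest IDR summit over 500 bp from the own TSS. The highest of all members was upstream of ATPsynCF6, with signal 1646 at rank 295, position -1065 (peak chr3R:23356895-23357390), and it ranked 290 in replicate 1 and 319 in replicate 2. The nearest coding gene was Sec13, whose TSS was 566 bp from the summit. ATPsyndelta had signal 410 at rank 2345, position -1648, nearest to Ypel. ATPsynbeta, the catalytic subunit, which lies on chromosome 4, had signal 155 at rank 6629, position -522, 13 bp from the TSS of CG11076. ATPsynD had signal 142 at rank 7180, position -1767, nearest to cdi. In all 4 the nearest coding TSS belonged to another gene.

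**Figure D4:**
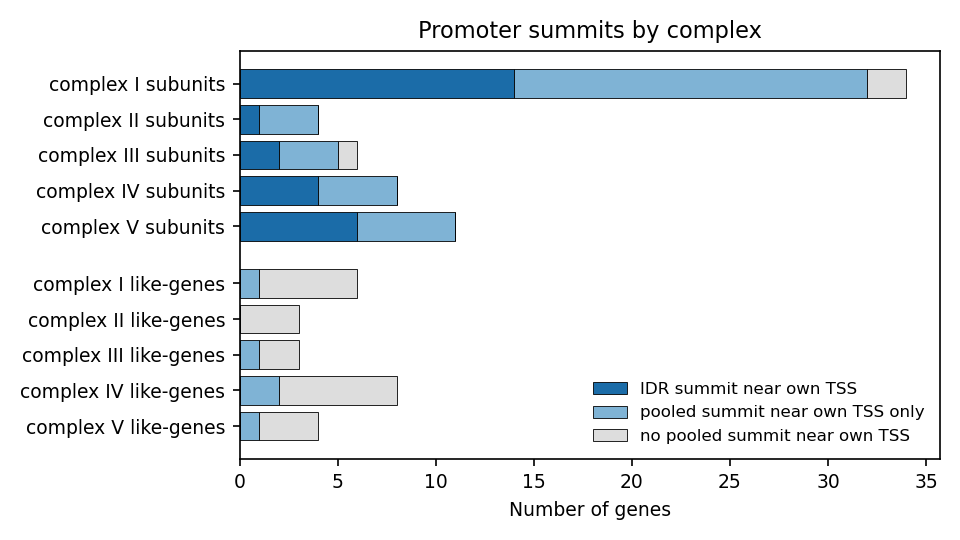
Number of genes (horizontal) in each complex with a summit of the IDR list within 500 bp of an own TSS, with such a summit in the pooled list only, and with none in the pooled list, for subunit genes (upper bars) and like-genes (lower bars). The IDR counts for subunits are 14 of 34, 1 of 4, 2 of 6, 4 of 8 and 6 of 11 for complexes I to V, and 0 for the like-genes of each.

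Promoters shared with a neighbour were frequent among the subunit genes. A coding gene on the other strand started within 500 bp of the TSS at 30 of 63 subunit genes (47.6%), at 3 of 24 like-genes (12.5%) and at 24.9% of all protein-coding genes. Of the 30 such subunit genes, 18 (60%) had a promoter summit in the IDR list, beside 54.1% of such protein-coding genes. Of the other 33 subunit genes, 9 (27.3%) had one, beside 20.4% of protein-coding genes without such a neighbour. The part of these neighbours in the higher share of the subunit genes was not tested. Of the 24 members whose highest IDR summit was within 500 bp of an own TSS, 20 had another coding TSS within 500 bp of that summit, and 20 had the summit upstream. Of all 37 members with an IDR summit in the window, 21 were the coding gene nearest to their highest summit and 13 had that summit over 500 bp away. These counts of the 24 and of the 37 members were not made over all protein-coding genes with an IDR summit. They are not read as particular to the members.

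The like-genes differed among themselves. COX7AL2, a paralog of COX7A, was the 1 like-gene with IDR summits in its window, and it had 4 of them over a gene of 5388 bp, none within 500 bp of a TSS. They were at -1471 (signal 513, rank 1777), 520 (signal 359, rank 2722), 1227 (signal 249, rank 4070) and -568 (signal 142, rank 7173), and its own TSS was the nearest coding TSS for each. Its highest summit was at rank 1674, position -1446, in replicate 1, while in replicate 2 it was at rank 2101, position 467.

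Promoter summits in the pooled list were found at 5 like-genes, which are UQCR-6.4L (rank 7822, position -482), COX7AL2 (rank 11028, position 316), ATPsynepsilonL (rank 11201, position -237), COX7AL (rank 16887, position -123) and ND-B14.5AL (rank 24432, position 102). In the pooled list 0 of these 5 were within 100 bp of the TSS, beside 36 of 60 for subunit genes, while in replicate 1 ND-B14.5AL was at position 32. The promoter summits of UQCR-6.4L and ATPsynepsilonL were found in both replicates, and so was that of COX7AL2, although at different positions (-332 and 467).

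Other like-genes were in the pooled list only through a distant summit. COX5BL had it at -1809, and that peak, at rank 9273, was the promoter summit of COX5B at -178. COX7CL had it at -1620, and that peak, at rank 9685, was the highest promoter summit of COX7C, at position 375. SdhBL and UQCR-11L had theirs at -736 and -1229. No summit was found in the window in any list for 12 members, of which 11 were like-genes and the other was Sdhaf3. The same count was not made for all protein-coding genes.

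The letters of several of the motifs searched, among them 2 promoter elements, were more frequent in the promoters of subunit genes than in those of like-genes. A promoter here is the sequence between 250 bp before and 50 bp after the 5′ end of the gene record. That end need not be the TSS nearest to the promoter summit. Both strands were searched. GGTCACAC, the core of the M1BP element, was in 15 of 63 subunit promoters (23.8%), in 1 of 24 like-gene promoters (4.17%) and in 7.69% of all protein-coding promoters. TATCGATA, the DREF element, was in 9 subunit promoters (14.3%), in 0 like-gene promoters and in 9.36% of all. Either of them was in 23 subunit promoters (36.5%), in 1 like-gene promoter (4.17%) and in 16.1% of all. No test was made of these shares.

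Other letters were searched in the same way. CAGCTG was in 19 subunit promoters (30.2%), 2 like-gene promoters (8.33%) and 17.6% of all. TAATTA, the core that many homeodomain proteins recognise, was in 16 subunit promoters (25.4%), 5 like-gene promoters (20.8%) and 20.4% of all. TTACGTAA, TTATATAA or TTACATAA, the spellings of the palindrome of nuclear respiratory genes, were in 5 subunit promoters (7.94%), 0 like-gene promoters and 5.18% of all. CACGTG was in 2 subunit promoters (3.17%), 2 like-gene promoters (8.33%) and 4.20% of all. TCAAGGTCA, a site of the estrogen-related receptor, was in 0 subunit and 0 like-gene promoters and in 0.122% of all. No motif searched contains the letters of another.

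**Figure D5:**
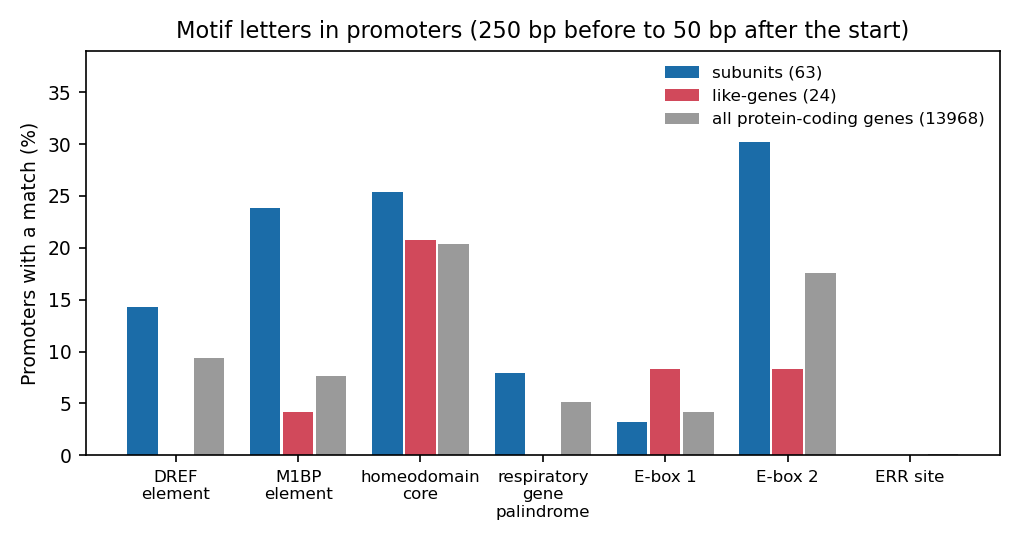
Share of promoters (%, vertical axis) that hold the letters of each motif on either strand, for subunit genes, like-genes and all protein-coding genes. E-box 1 is CACGTG, E-box 2 is CAGCTG and the ERR site is TCAAGGTCA, and the M1BP element stands at 23.8% of subunit promoters, 4.17% of like-gene promoters and 7.69% of all.

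Among the subunit genes, the share with DREF or M1BP letters differed between classes of promoters. The letters were counted at the 5′ end of the gene record, while the summit could be at any TSS of the gene. UQCR-C2 and ND-B14.5B held such letters at their promoter summit but are counted as promoters without them. Either was in 7 of 27 promoters (25.9%) with a summit in the IDR list and in 16 of 33 promoters (48.5%) with a summit in the pooled list only, and in 0 of the 3 promoters with none in the pooled list. Over all protein-coding genes the shares of these classes were 26.2% and 22.5%, and the share was 6.43% without a summit in the pooled list. Within 50 bp of the promoter summits of subunit genes, GGTCACAC was in 6 of 60 windows of the pooled list (10%), beside 3.24% for all protein-coding genes, and in 1 of 27 windows of the IDR list, beside 1.64%. TAATTA was in 1 of 27 windows of the IDR list (3.70%), beside 12.1% for all protein-coding genes. CAGCTG was in 9 of 60 windows of the pooled list (15%), beside 5.92%. The mean share of A and T in the windows of the IDR list was 67.8% for subunit genes and 67.6% for all protein-coding genes.

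Genes of the same pathway whose symbols fall outside the rule mostly had a promoter summit in the pooled list as well. Of 9 further nuclear subunits and electron carriers, 7 had a promoter summit in the IDR list and 8 in the pooled list. Among them levy (a COX6A, rank 1482), blw (the alpha subunit of the ATP synthase, rank 1504) and cype (a COX6C, rank 1736) stood beside the higher subunit genes. Cyt-c-d, a testis cytochrome c, ranked 126 with its summit at position 377. sun, which encodes the epsilon subunit of the ATP synthase, had no summit in any list, although its paralog ATPsynepsilonL had one in the pooled list. The mitochondrial genome carries 13 protein-coding genes, and 0 peaks of the 4 lists were on it.

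Assembly factors had a promoter summit in the IDR list at 3 of 8 genes found in the annotation, which were CIA30 (a complex I factor, rank 177, position -109), Ttc19 (rank 977) and Coa8 (rank 2867), and in the pooled list at all 8. For genes of mitochondrial DNA maintenance and transcription the counts were 6 and 8 of 10, and for tricarboxylic acid cycle genes they were 5 and 10 of 11, with Fum1 counted through the summit it shares with ND-ASHI. The adenine nucleotide and phosphate carriers with porin gave 2 and 5 of 5. Regulators of respiratory genes gave 4 and 8 of 8, with the IDR summits at M1BP (rank 326), ERR (rank 852), Dref (rank 1503) and crc (rank 3455). srl, ewg and Ets97D, the fly relatives of the coactivator PGC-1 and of the factors NRF-1 and GABP, had promoter summits in the pooled but not in the IDR list, at ranks 8741, 7573 and 8649. Myc had one at rank 10608. These counts are read beside the 28.8% and 53.4% of all protein-coding genes given above.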

How the data were processed

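The deposited notes name 1 control alignment for the peak calls of replicate 1, of replicate 2 and of their pool, and give these calls as the source of the IDR list. Per the labels, the assembly was dm6 and chromatin was sheared by sonication. The aligner, the caller, the settings of the IDR step and the depth are not given in the sources used here. Each deposited list gave a signal, used to rank peaks within a list, a −log10 q-value, not used because all IDR peaks shared 4.37, and a summit offset.

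Summits were assigned with Python 3.11.15 and numpy 2.4.6 to genes of Ensembl release 115 (annotation version 6.54) when in the gene or 2000 bp upstream, and to promoters when within 500 bp of any annotated TSS of the gene. One summit could count for several genes. Motifs were searched in the release 6 reference genome, on both strands, over 101 bp at summits and 300 bp at promoters. Promoters were placed by the 5′ end of the gene record, and sequences are from the same genome. The assignment was checked on simulated peaks. Figures used matplotlib 3.10.9.

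Members, gene lists and motifs were chosen with earlier results of these data known. Named by rule are up to 6 members per complex of highest IDR signal in the window, every member whose highest IDR summit was over 500 bp from an own TSS, and every like-gene with an IDR summit; others are named after their values were seen.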

Additional observations from a re-analysis of the deposited data

How the results depend on the processing

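Of 47 alternative values of 8 results, 31 stayed within 1.5 times the count, or within 11.3 bp for the median position, and 16 moved, with 0 reversed. The count of 37 of 88 members for the window and the IDR list was 69 in the pooled list and 20 in the part of the IDR list above its median signal. It was 11 with no upstream sequence, 23 when a summit counted only for the gene of the nearest TSS, and 35 to 44 when 1 replicate was left out. Of 13968 protein-coding genes the count was 5583, and in the same order 9024, 3569, 2229, 3914, and 5524 to 5778. In the upper part, with no upstream sequence and by nearest TSS, the share of the members was below that of all protein-coding genes. The count of 27 members near an own TSS was 65 in the pooled list, 14 in the upper part, and 27 to 35 without 1 replicate. Over all protein-coding genes it was 4029, and in the same order 7453, 2418, and 3977 to 4247. For subunit genes alone the 27 became 60, 14, and 27 to 34. The pooled count of 60 subunit genes was 49 to 60 under all alternatives, and 52 to 60 without 1 replicate. For all protein-coding genes the pooled count was 6231 to 8199 under the same alternatives. The 0 like-genes in the IDR list became 5 in the pooled list and 2 within 1 kb, and 0 to 1 without 1 replicate. Their pooled count of 5 was 3 within 250 bp, 3 by nearest TSS, and 3 to 5 without 1 replicate. Fewer or more peaks and narrower or wider windows change these counts by construction. The median position of the nearest IDR summit of members, -103, was -60 in the pooled list and -117 to -101 without 1 replicate. For all protein-coding genes it was -140, and in the same order -95.5 and -140 to -138. The cause was not tested. The 37 members with a summit in both replicates became 36 within 150 bp and 33 among the highest peaks. Over all protein-coding genes these counts were 5519, 5453 and 4930.

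Promoter summits of the IDR list were compared with the nearest summit of each replicate, a choice that favours agreement. Of 54 positions compared in this way, 51 were within 150 bp on the same side and 2 moved (SdhC and ATPsynC in replicate 2, at -291 and -246). The remaining 1 reversed, UQCR-C2, at 15 in replicate 2 and -55 in replicate 1, with -35 in the IDR list. These positions are against 1 fixed TSS per gene; against the nearest own TSS, COX5A also changed side, with -115 in replicate 2 and 115 in the IDR list; the cause was not tested. No paired analysis was possible because there was 1 group. Each list of 30000 peaks ends at that number, so a gene without a summit may hold a weaker one.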

Other observations

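In the windows of the members, 5 of 9 distances under 1 kb between neighbouring IDR summits fell between 190 and 220 bp, at ND-51 (207 bp), ND-SGDH (205 bp), SdhA (200 bp), SdhC (216 bp) and COX8 (202 bp). At ND-51, ND-SGDH, SdhC and COX8 the farther summit was nearer to the TSS of a neighbouring gene. Over the whole IDR list, 306 of 874 distances under 1 kb between neighbouring summits (35.0%) were of that size, and the smallest distance was 199 bp. These distances are given as a description.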
